A study of Mus musculus with 39 samples.

Results

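The comparison sets 3 libraries of MIN6 cells treated for 6 h with SW016789 against 3 libraries of cells given DMSO for 6 h, over all genes of the raw count table. The libraries were chosen by their labelled treatment and time, and they are 6 of 39. MIN6 is an insulin-secreting line established from a pancreatic β cell tumor of the mouse, so every library comes from 1 tumor-derived line. SW016789 (5 µM) was found as a small molecule that causes hypersecretion of insulin, and DMSO (0.1%) is its vehicle. The other groups drawn on below were cells treated for 6 h with thapsigargin (100 nM), which blocks SERCA and so depletes Ca2+ from the endoplasmic reticulum (ER), and cells given SW016789 or DMSO for 1, 2 or 24 h. Each group held 3 libraries, 1 from each of 3 experiments of 13 samples, in which compounds were added at different times and cells harvested at the same time. Total RNA was treated with DNase on the column before library preparation.

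Insulin is made as a preproprotein that enters the ER, is folded and oxidized there, and travels through COP-II vesicles to the Golgi and into granules. When the load of unfolded protein in the ER rises, the sensors IRE1, ATF6 and PERK change transcription and translation. IRE1 and ATF6 act through XBP1 and cleaved ATF6 on genes of chaperones, degradation and transport, and PERK acts through phosphorylated eIF2α and ATF4, a route it shares with amino acid shortage, on genes of amino acid supply and tRNA charging.

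The 6 libraries held 15359239 to 47616080 counts, and those of the whole series 9150443 to 47616080. SW016789 replicate 1 stood apart. It held 15359239 counts, the lowest total of the 6 libraries, 26.5% of its high-quality reads lay in intergenic regions and 11.1% crossed exon junctions, whereas the other 5 libraries held 6.17% to 7.55% intergenic reads. Over the series 9 of 39 libraries were above 20% intergenic, among them thapsigargin 6 h replicates 2 and 3 (33.95% and 20.2%). All 10 β cell markers were above 1 CPM (counts per 1e+06 counts, TMM scaled) in the DMSO libraries, where their summed level was 27339 to 30564 CPM, against 23580, 35082 and 32390 CPM in the SW016789 libraries. Of 10 markers of other islet cells 7 were under 1 CPM in every DMSO library, with Gcg (glucagon), Ttr and Irx2 above it. Of 17 acinar and ductal markers 14 were under 1 CPM in every DMSO library and 5 of these were at 0, and their sum was 15.9 to 22.9 CPM in DMSO and 70.1, 59.1 and 52.9 CPM in SW016789, where Bhlha15, a transcription factor of secretory cells, was the member that rose. Of 18 stromal, endothelial and immune markers 14 were under 1 CPM in every DMSO library, and 17 of the 18, all but Pdgfra, were highest of the 6 libraries in SW016789 replicate 1, where their sum was 58.5 CPM against 12.9 to 16.5 CPM in the other 5. In bulk RNA, fewer cells of a type and less RNA per cell cannot be told apart.

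At 6 h, 1531 of 21752 genes tested differed between SW016789 and DMSO (7.04%, edgeR's quasi-likelihood test, Benjamini-Hochberg adjusted p below 0.05), of which 911 were higher (4.19%) and 620 were lower (2.85%). The 3 and 3 libraries did not overlap for 5012 genes (23%), 2692 higher and 2320 lower. Of the 1531 genes called, 1512 did not overlap in the direction of the call. A lack of overlap was also a condition for the 15 largest changes named per direction, so it adds nothing to their calls. Among these are Slc7a11, Wnt5a, Eif4ebp1, Ddit3, Derl3, Trib3, Chac1, Slc2a2, Ret and Pax4, whose separate groups of libraries are described below. Most differences were small. The median log2 fold change was 0.55 among the genes that rose, with 131 above 1 and 28 above 2, and -0.43 among those that fell, with 17 beyond -1 and 0 beyond -2. The median over all genes tested was 0.12, and 0.01 over the 13334 genes whose 6 libraries averaged 1 CPM or more. Leaving out SW016789 replicate 1 gave 1155 genes (835 higher and 320 lower), of which 1043 were among the 1531. The count fell to 591 without SW016789 replicate 2, 874 without SW016789 replicate 3, 572 without DMSO replicate 1 and 997 without DMSO replicate 2.

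The genes called were mostly of moderate and high level in DMSO. Low counts are harder to call with 3 libraries per group, so few calls there do not show that such genes did not respond. Of 2537 genes at 100 CPM or more in DMSO, 298 rose and 216 fell (20.3%), and of 7318 genes from 10 to under 100 CPM 534 rose and 399 fell (12.7%). Of 3169 genes from 1 to under 10 CPM 68 rose and 5 fell, and of 8728 genes under 1 CPM 11 rose and 0 fell. In this last class the median log2 fold change was 1.98 and 6200 genes (71.0%) were highest of the 6 libraries in SW016789 replicate 1, whereas without that library the median was 0 and 0 of them were called by edgeR. Of the genes that rose 6 were at 0 in every DMSO library. Genes that rose had a median exon length of 3145 bases and genes that fell 4199 bases, against 2412 bases over all genes tested. SW016789 replicate 1 was the most extreme of the 3 SW016789 libraries for 228 of 911 genes that rose (25.0%) and 407 of 620 that fell (65.6%).

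**Figure D1:**
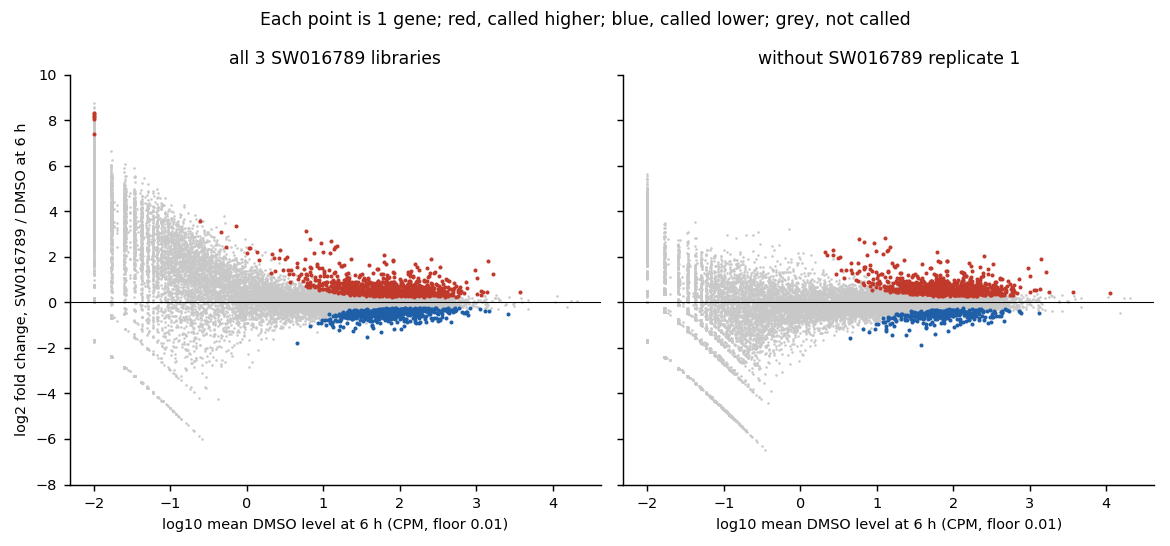
Log2 fold change of SW016789 against DMSO at 6 h (vertical axis) against log10 of the mean DMSO level in CPM (horizontal axis, low values set to the floor on the axis label), 1 point per gene, with all 3 SW016789 libraries at left and without SW016789 replicate 1 at right. Genes under 1 CPM spread upward at left, with a median of 1.98, and are centred on 0 at right, where the called genes all lie at 1 CPM or more.

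Among the largest increases were those of Slc7a11, Wnt5a, Eif4ebp1 and Bcat1. Slc7a11, the cystine-glutamate exchanger xCT (Entrez 26570, mm10 chromosome 3, 50364936 to 50443613, minus strand), was at 6.72, 5.37 and 5.67 CPM in the 3 DMSO libraries and at 75.7, 47.0 and 34.5 CPM in SW016789. It rose by 3.14 ± 0.28 (log2 ± SE, adjusted p = 1.40e-10), and by 2.79 without SW016789 replicate 1, its highest library. Wnt5a, a noncanonical Wnt ligand (Entrez 22418, chromosome 14, 28505473 to 28525515, plus strand), was at 4.79, 7.92 and 7.53 CPM in DMSO and at 54.2, 48.6 and 36.2 CPM in SW016789. The groups lay far apart, with a difference of 2.77 ± 0.27 (adjusted p = 1.15e-09). Eif4ebp1, which encodes the translation repressor 4E-BP1, was at 9.81, 10.0 and 8.21 CPM in DMSO and at 53.9, 61.8 and 52.9 CPM in SW016789, a rise of 2.59 ± 0.15 (adjusted p = 3.50e-15). Slc6a9, the glycine transporter GlyT1, rose by 2.15 ± 0.35 (adjusted p = 2.69e-05), and Bcat1, the cytosolic branched-chain aminotransferase, by 2.31 ± 0.54 (adjusted p = 0.00385). Both kept the call without any 1 of the 6 libraries.

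Among the largest increases were also genes of very low level in DMSO, whose calls were lost without SW016789 replicate 1 and without several of the other libraries. Areg, an EGF receptor ligand, was at 0.565, 0.602 and 0.984 CPM in DMSO and at 8.70, 8.36 and 5.10 CPM in SW016789 (log2 fold change 3.36 ± 0.95, adjusted p = 0.022, and 0.0517 without SW016789 replicate 1). Ptgs2, the inducible cyclooxygenase, was at 1.87, 1.10 and 1.14 CPM in DMSO and at 7.60, 7.15 and 4.52 CPM in SW016789 (2.22 ± 0.63, adjusted p = 0.0217, and 0.0598 without that library). Pappa, a protease that frees insulin-like growth factor, was at 0.327, 0.476 and 0.570 CPM in DMSO and at 7.28, 2.67 and 1.88 CPM in SW016789 (3.09 ± 0.96, adjusted p = 0.041, and 0.238 without it). For all of these genes the SW016789 libraries were above the DMSO libraries, which was required of the largest increases named. For Pappa SW016789 replicate 1 was far above the others. Gm5615, Mamdc2, Extl1 and Plcxd1 likewise lost the call without SW016789 replicate 1, at adjusted p values of 0.122, 0.269, 0.106 and 0.127, and their log2 fold changes with it were 3.56, 2.41, 2.39 and 2.37.

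**Figure D2:**
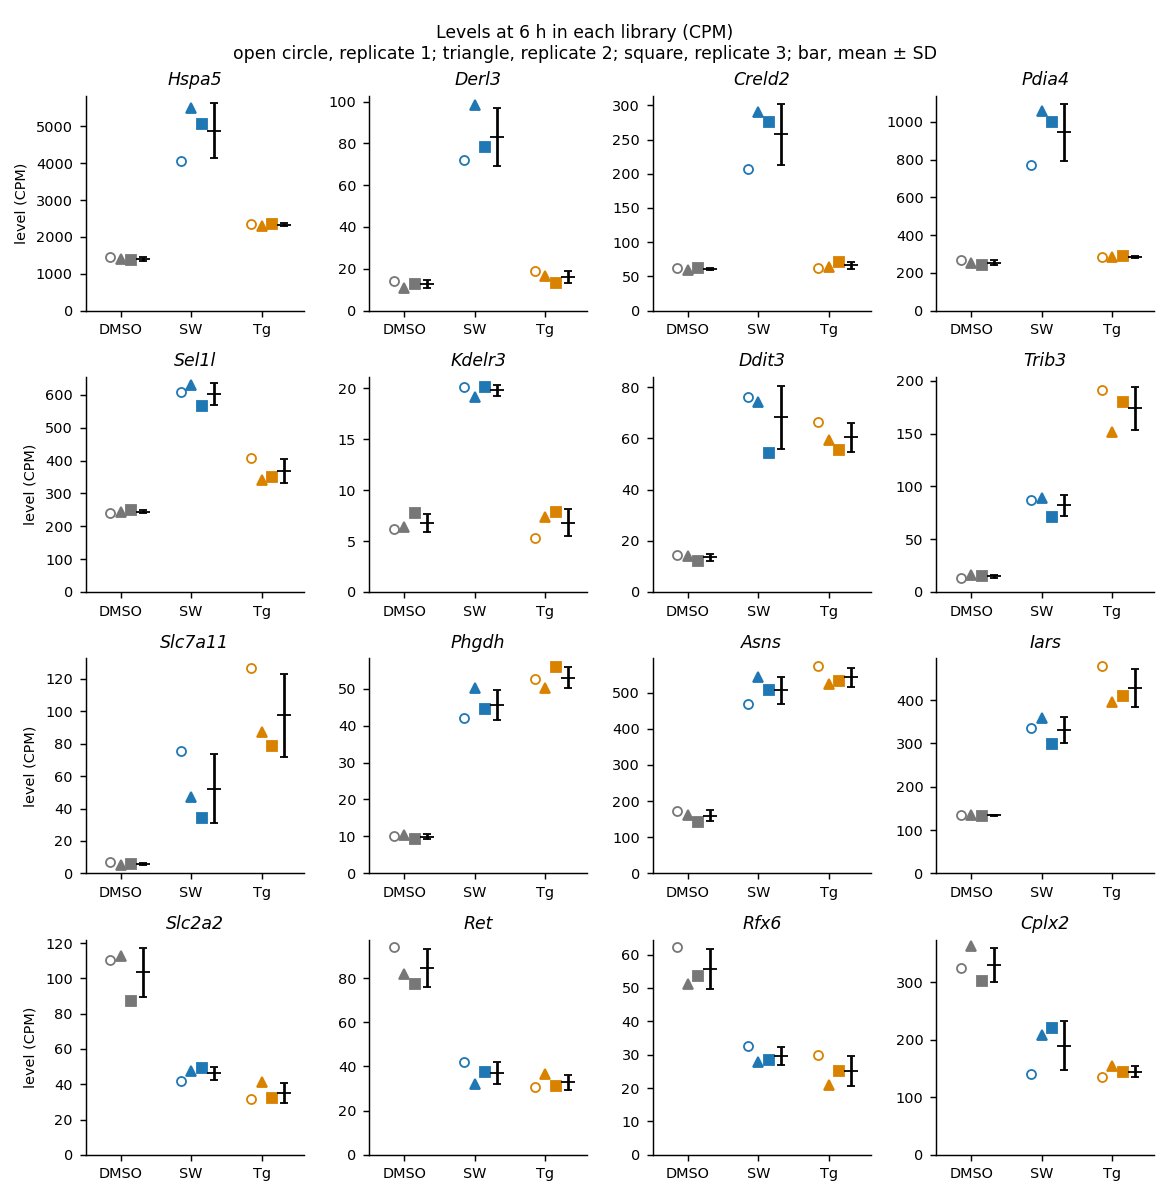
Level in CPM (vertical axis, from 0) of 16 genes in each of the 3 DMSO, 3 SW016789 (SW) and 3 thapsigargin (Tg) libraries at 6 h, with symbols for replicates and a bar for the mean ± SD. Hspa5, Creld2, Pdia4, Derl3 and Kdelr3 were highest in SW016789, Trib3, Slc7a11 and Iars were highest in thapsigargin, and Slc2a2, Ret, Rfx6 and Cplx2 were highest in DMSO.

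Genes that sense or transmit ER stress were mostly higher. Of 16 sensors and transcription factors of the unfolded protein response (UPR) 12 rose, 0 fell and 4 were not called, with a median log2 fold change of 0.84 against 0.12 over all genes tested. This list and those below were chosen with earlier results of these data known, so their counts and medians are descriptions and not tests. Ddit3, which encodes CHOP (Entrez 13198, chromosome 10, 127290793 to 127296288, plus strand), was at 14.5, 14.2 and 12.0 CPM in DMSO and at 76.3, 74.3 and 54.1 CPM in SW016789, with a difference of 2.33 ± 0.21 (adjusted p = 2.88e-10). Atf4, whose mRNA encodes the central factor of the integrated stress response (ISR), was at 202, 169 and 161 CPM in DMSO and at 478, 498 and 431 CPM in SW016789, a rise of 1.41 ± 0.10 (adjusted p = 8.29e-13). For both genes every SW016789 library was far above every DMSO library. Xbp1, the substrate of IRE1 splicing, rose by 0.77 ± 0.10 (adjusted p = 2.51e-07), which is total mRNA and not its spliced form. Atf3, a stress-induced bZIP factor, was at 7.88, 5.87 and 6.50 CPM in DMSO and at 15.2, 11.6 and 11.3 CPM in SW016789, a rise of 0.90 ± 0.19 (adjusted p = 0.0011). Cebpb, a bZIP partner of CHOP, rose by 1.26 ± 0.37 (adjusted p = 0.0285). It kept the call only without SW016789 replicate 3 among single libraries left out, and had an adjusted p of 0.16 without SW016789 replicate 1. Creb3l1, which encodes a membrane-bound bZIP factor, was not called (1.14 ± 0.45, adjusted p = 0.134).

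Of 19 feedback and effector genes of the ISR 8 rose, 1 fell and 10 were not called, with a median of 0.76. The gene that fell was Eif2ak2, the eIF2α kinase PKR (-0.39 ± 0.10, adjusted p = 0.0102), which was not called without SW016789 replicate 1, 2 or 3 or DMSO replicate 1, and 2 of the list fell with the experiment number as a block. Trib3, a pseudokinase induced by CHOP, was at 13.4, 16.5 and 14.8 CPM in DMSO and at 86.7, 88.8 and 70.9 CPM in SW016789 (2.46 ± 0.17, adjusted p = 2.17e-13). Chac1, an enzyme that degrades glutathione (Entrez 69065, chromosome 2, 119351242 to 119354327, plus strand), was at 13.3, 15.9 and 12.7 CPM in DMSO and at 90.2, 75.4 and 62.9 CPM in SW016789 (2.44 ± 0.19, adjusted p = 6.01e-12). Nupr1, a small stress-induced chromatin protein, was at 12.3, 12.4 and 11.9 CPM in DMSO and at 58.8, 56.2 and 49.8 CPM in SW016789 (2.17 ± 0.26, adjusted p = 1.44e-07). None of these 3 genes had a SW016789 library within the DMSO range, which was required of Trib3 and Chac1 as largest increases. Sesn2, which encodes an amino acid sensor upstream of mTORC1, rose by less (0.76 ± 0.12, adjusted p = 1.36e-05), and Qrich1, a regulator of ER stress translation, was not called (0.20 ± 0.08, adjusted p = 0.148).

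ER folding genes rose in large numbers. In the lists of ER folding, entry, glycosylation, degradation and transport described next 0 members fell by edgeR's test and 0 by DESeq2, and 1 lectin list member was lower at an unadjusted p below 0.05, whereas 1 fell with the experiment number as a block. In the lists of UPR factors, serine enzymes, cytosolic synthetases, initiation factors and heat shock genes 0 were lower at an unadjusted p below 0.05 or by DESeq2. Of 17 genes of the Hsp70 chaperone system of the ER 12 rose, 0 fell and 5 were not called, with a median of 1.13. Hspa5, which encodes the chaperone BiP (Entrez 14828, chromosome 2, 34772090 to 34776529, plus strand), was at 1461, 1394 and 1367 CPM in DMSO and at 4051, 5502 and 5070 CPM in SW016789, a rise of 1.79 ± 0.10 (adjusted p = 7.60e-16). Creld2, an ER protein with disulfide isomerase activity (Entrez 76737, chromosome 15, 88819646 to 88826681, plus strand), was at 61.6, 59.6 and 62.3 CPM in DMSO and at 207, 290.2 and 276 CPM in SW016789 (2.08 ± 0.10, adjusted p = 3.82e-17). SW016789 replicate 1 was the lowest treated library for both, and both differences were larger without it (1.91 and 2.21). Per kilobase of exon, the level of Hspa5 went from 538 to 1863 CPM and that of Creld2 from 44.8 to 189 CPM, so that Hspa5 was the more abundant mRNA in both groups. Sdf2l1, a BiP cofactor, rose from 75.3, 58.6 and 65.6 CPM to 174, 223 and 236 CPM (1.67 ± 0.11, adjusted p = 1.99e-14). Manf, a secreted ER protein that binds BiP, rose from 341, 330.1 and 331 CPM to 823, 1058 and 1066 CPM (1.56 ± 0.11, adjusted p = 1.42e-13).

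Of 23 disulfide isomerases and ER oxidases 13 rose, 0 fell and 10 were not called, with a median of 0.39. Pdia4 was at 270.3, 250.2 and 242 CPM in DMSO and at 774, 1060 and 1002 CPM in SW016789 (1.90 ± 0.10, adjusted p = 1.06e-16). Pdia6, an isomerase that also acts on IRE1, was at 292, 263 and 301 CPM in DMSO and at 598, 752 and 804 CPM in SW016789 (1.33 ± 0.11, adjusted p = 7.66e-12). Pdia3, the isomerase that works with calnexin and calreticulin, rose by 0.91 ± 0.09, and Selk, an ER selenoprotein, by 0.88 ± 0.12. Of 16 lectins and Ca2+-binding proteins of the ER 9 rose and 7 were not called, with a median of 0.36. Calr, which encodes calreticulin, was at 1054, 1017 and 967 CPM in DMSO and at 1788, 2273 and 2235 CPM in SW016789 (1.05 ± 0.08, adjusted p = 1.25e-12). Nucb2 (Ca2+ binding, 0.89 ± 0.12), Calu (calumenin, 0.66 ± 0.08) and Mogs (the glucosidase that starts N-glycan trimming, 0.58 ± 0.10) also rose. The lectin count was 4 without SW016789 replicate 2, 4 without SW016789 replicate 3 and 5 without DMSO replicate 1, and the isomerase count was 8 without SW016789 replicate 2 and 8 without SW016789 replicate 3.

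Genes of entry into the ER and of glycosylation were also called higher. Of 24 genes of the translocon and signal peptidase 18 rose, 0 fell and 6 were not called, with a median of 0.52. Sec61a1, the pore subunit, was at 525, 527 and 495 CPM in DMSO and at 834, 999 and 965 CPM in SW016789 (0.86 ± 0.09, adjusted p = 1.42e-08). Sec11a (signal peptidase, 0.71 ± 0.13), Srprb (signal recognition particle receptor, 0.71 ± 0.10) and Ssr3 (TRAP complex, 0.66 ± 0.07) rose as well. Of 37 genes of oligosaccharyltransferase, N-glycan and hexosamine synthesis 18 rose, 0 fell and 19 were not called, with a median of 0.38. Gmppb, which makes GDP-mannose, rose from 22.2, 18.7 and 19.2 CPM to 42.4, 52.1 and 46.0 CPM (1.23 ± 0.15, adjusted p = 2.31e-07). Pgm3 (hexosamine synthesis, 1.00 ± 0.13), Dpagt1 (the first step of the N-glycan precursor, 0.91 ± 0.14) and Slc35b1 (the ATP carrier of the ER, 0.90 ± 0.09) also rose. The translocon count was 10 without SW016789 replicate 2 and 11 without SW016789 replicate 3, and the glycosylation count was 11 in each of these cases.

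ER-associated degradation (ERAD) sends misfolded proteins out of the ER to the proteasome. Of 32 such genes 14 rose, 0 fell and 18 were not called, with a median of 0.24. Derl3, which encodes a derlin of the retrotranslocation channel (Entrez 70377, chromosome 10, 75893398 to 75895941, plus strand), was at 14.3, 10.8 and 12.9 CPM in DMSO and at 71.9, 98.4 and 78.3 CPM in SW016789, a rise of 2.71 ± 0.21 (adjusted p = 2.17e-12). Sel1l, the adaptor of the ligase complex (Entrez 20338, chromosome 12, 91806043 to 91849157, minus strand), was at 239.8, 244 and 248 CPM in DMSO and at 607, 631 and 566 CPM in SW016789 (1.30 ± 0.08, adjusted p = 2.48e-15). Syvn1, the ubiquitin ligase HRD1 (Entrez 74126, chromosome 19, 6046576 to 6053718, plus strand), was at 138, 137 and 134 CPM in DMSO and at 273, 339.9 and 284 CPM in SW016789 (1.13 ± 0.11, adjusted p = 4.94e-10). All 3 genes had each SW016789 library above every DMSO library, and per kilobase of exon Sel1l went from 38.7 to 95.5 CPM, Syvn1 from 37.3 to 81.7 CPM and Derl3 from 9.47 to 62.0 CPM. Herpud1, a scaffold of that complex, was at 83.6, 82.5 and 79.99 CPM in DMSO and at 284, 303 and 276 CPM in SW016789 (1.81 ± 0.11, adjusted p = 1.13e-14). Os9, the lectin that brings substrates to SEL1L, was not called (0.21 ± 0.08, adjusted p = 0.101), and its libraries overlapped at 195, 213 and 198 CPM in DMSO and 207, 242 and 254 CPM in SW016789. It was called without SW016789 replicate 1 (0.30, adjusted p = 0.0287). The ERAD count was 7 without SW016789 replicate 2, 9 without SW016789 replicate 3 and 8 without DMSO replicate 1.

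ER-phagy delivers ER to lysosomes through receptors. Of 8 receptors 0 rose by edgeR's test (1 at an unadjusted p below 0.05 and 1 by DESeq2) and 3 fell, with a median of -0.09. Over all genes tested 4.19% rose and 2.85% fell, so 0 of 8 that rose does not set the receptors apart from other genes. Fam134c was at 87.7, 102.7 and 97.3 CPM in DMSO and at 62.9, 75.3 and 77.4 CPM in SW016789 and fell by 0.41 ± 0.09 on the log2 scale (adjusted p = 0.00198), but its adjusted p was 0.0681 without DMSO replicate 1. Calcoco1 fell by 0.46 ± 0.11 on the log2 scale and Atl3 by 0.30 ± 0.08. Neither was called without SW016789 replicate 1 (adjusted p = 0.0639 and 0.223). Atl3 lost the call whichever single library was left out, and Calcoco1 also lost it without DMSO replicate 2 (adjusted p = 0.0652). The count of 3 was 1 without SW016789 replicate 1, 1 without DMSO replicate 1 and 1 without DMSO replicate 2. Fam134b, a receptor of ER sheets, was not called (0.44 ± 0.16, adjusted p = 0.107).

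Transport from the ER followed. Of 18 genes of the COP-II coat and ER exit sites 14 rose, 0 fell and 4 were not called, with a median of 0.55. Sec24d, a cargo-binding coat subunit, was at 161, 139 and 138 CPM in DMSO and at 306, 351 and 309 CPM in SW016789 (1.14 ± 0.11, adjusted p = 3.21e-10). Preb (the exchange factor SEC12, 0.86 ± 0.13), Sec23b (inner coat, 0.76 ± 0.09) and Sec16a (exit site scaffold, 0.71 ± 0.11) rose. Of 21 cargo receptors and p24 proteins 12 rose and 9 were not called, with a median of 0.40, among them Mcfd2 (0.91 ± 0.13) and Lman1 (0.81 ± 0.08), which together form a receptor for glycoproteins. Of 28 genes of the COP-I coat, KDEL receptors and ER-Golgi SNAREs 20 rose and 8 were not called, with a median of 0.41. Kdelr3, a receptor that returns ER proteins carrying a KDEL end (Entrez 105785, chromosome 15, 79516408 to 79527739, plus strand), was at 6.18, 6.37 and 7.77 CPM in DMSO and at 20.1, 19.2 and 20.1 CPM in SW016789 (1.55 ± 0.25, adjusted p = 1.99e-05). Uso1, the tether p115, rose from 207, 216 and 221 CPM to 367, 444 and 407 CPM (0.92 ± 0.08, adjusted p = 8.65e-11). None of the 3 lists had a member that fell. Without SW016789 replicate 2 or 3 or DMSO replicate 1, in this order, the counts were 8, 9 and 9 for COP-II, 4, 5 and 6 for cargo receptors and 9, 10 and 10 for COP-I.

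**Figure D3:**
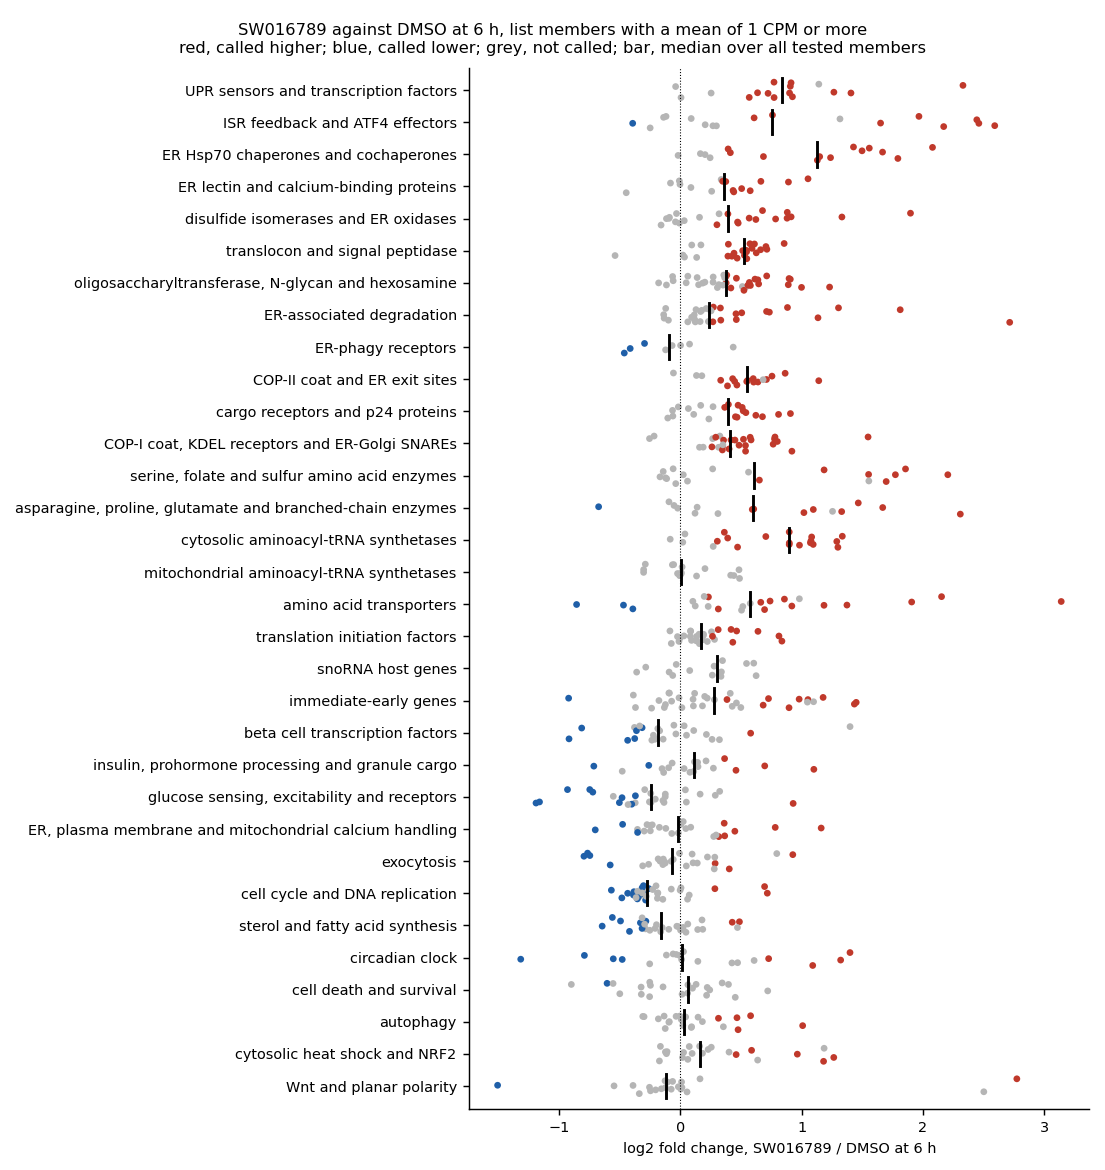
Log2 fold change of SW016789 against DMSO at 6 h (horizontal axis) for the members of 32 gene lists that average 1 CPM or more, 1 point per gene, with a black bar at the median over all tested members. ER chaperones, COP-II genes and cytosolic aminoacyl-tRNA synthetases lie to the right, with medians of 1.13, 0.55 and 0.90, and cell cycle and glucose sensing genes to the left, with medians of -0.27 and -0.24.

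The promoters of ER genes that rose are shown because they hold the elements through which XBP1 and ATF6 are known to act. The 250 bases before each start were taken from RefSeq (GRCm38.p6) and searched on both strands for ERSE (CCAAT, any 9 bases, CCACG), ERSE-II (ATTGG, any 1 base, CCACG), UPRE (TGACGTGG), CARE (TGATGNAAN), CRE (TGACGTCA) and the core of the CHOP-ATF composite site (TGCAATCA). ERSE, ERSE-II and the reverse of UPRE share CCACG, so their matches can overlap. The sequences run 5′ to 3′ on the gene's strand, with matches in capitals. They are chr2:34771840-34772089 (plus strand) for Hspa5, with ERSE at -65 to -47 from the start, chr10:75893148-75893397 (plus) for Derl3, with ERSE in reverse at -156 to -138, chr15:88819396-88819645 (plus) for Creld2, with ERSE in reverse at -126 to -108, chr19:6046326-6046575 (plus) for Syvn1, with ERSE at -44 to -26, chr8:94386179-94386428 (plus) for Herpud1, with ERSE-II at -52 to -42 and CARE in reverse at -113 to -105, and chr15:79516158-79516407 (plus) for Kdelr3, with UPRE in reverse at -30 to -23. The window is set by the RefSeq start, which for Herpud1 is not the start in the count table.
Hspa5: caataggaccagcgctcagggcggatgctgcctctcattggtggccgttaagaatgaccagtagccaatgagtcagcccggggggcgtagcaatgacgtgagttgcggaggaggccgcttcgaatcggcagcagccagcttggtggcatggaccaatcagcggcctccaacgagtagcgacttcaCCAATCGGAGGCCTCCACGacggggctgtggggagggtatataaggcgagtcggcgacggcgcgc
Derl3: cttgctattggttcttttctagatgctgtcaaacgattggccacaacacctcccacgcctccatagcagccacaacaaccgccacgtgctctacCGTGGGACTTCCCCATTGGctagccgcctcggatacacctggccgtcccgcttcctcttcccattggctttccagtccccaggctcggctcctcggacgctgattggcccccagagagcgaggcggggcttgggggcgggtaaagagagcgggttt
Creld2: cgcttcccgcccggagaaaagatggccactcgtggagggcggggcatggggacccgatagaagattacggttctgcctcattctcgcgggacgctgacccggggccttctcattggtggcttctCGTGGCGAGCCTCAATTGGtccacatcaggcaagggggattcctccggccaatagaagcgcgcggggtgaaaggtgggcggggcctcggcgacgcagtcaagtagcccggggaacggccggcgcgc
Syvn1: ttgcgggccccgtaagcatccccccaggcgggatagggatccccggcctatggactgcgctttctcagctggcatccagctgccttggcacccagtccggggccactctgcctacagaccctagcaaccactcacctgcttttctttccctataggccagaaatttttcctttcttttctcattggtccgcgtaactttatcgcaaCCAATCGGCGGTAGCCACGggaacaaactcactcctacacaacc
Herpud1: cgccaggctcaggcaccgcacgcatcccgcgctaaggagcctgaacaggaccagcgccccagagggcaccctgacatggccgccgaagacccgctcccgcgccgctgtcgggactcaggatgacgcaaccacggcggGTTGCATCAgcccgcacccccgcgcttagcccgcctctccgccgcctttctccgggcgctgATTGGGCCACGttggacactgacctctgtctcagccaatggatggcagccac
Kdelr3: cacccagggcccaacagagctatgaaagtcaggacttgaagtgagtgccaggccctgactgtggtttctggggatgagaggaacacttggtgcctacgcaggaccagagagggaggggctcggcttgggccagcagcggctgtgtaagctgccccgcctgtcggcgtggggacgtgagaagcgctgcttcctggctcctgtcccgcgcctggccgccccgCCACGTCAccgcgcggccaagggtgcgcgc
ERSE was found in 33 of 27025 promoters in all (0.122%), in 11 of the 735 promoters matched to genes that rose (1.5%), and in 0 of the 453 matched to genes that fell. UPRE was found in 136 promoters in all (0.503%), in 17 of genes that rose (2.31%) and in 2 of genes that fell (0.442%), and ERSE-II in 9 in all (0.0333%), 3 and 0. Of the chaperone list 4 of 13 matched promoters held ERSE, of lectins 2 of 15 and of ERAD 2 of 22. Of isomerases 1 of 15 held it and of glycosylation genes 1 of 29. In other lists that rose it was absent, with 0 of 17 for the translocon and 0 of 17 for COP-II. The same was true of cargo receptors (0 of 16) and COP-I genes (0 of 26). UPRE was in 2 of 17 promoters for COP-II, 3 of 26 for COP-I, 2 of 22 for ERAD and 1 of 15 for isomerases. It was in 0 for chaperones, lectins, the translocon, glycosylation genes and cargo receptors. Among genes tested, ERSE was in 23 of 15907 promoters (0.145%) and UPRE in 99 (0.622%). A match describes these letters in this window and is not a measured site.

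Amino acid enzymes rose in groups. Of 20 genes of serine, folate and sulfur amino acid metabolism 7 rose, 0 fell and 13 were not called, and the median of 0.61 was 0.24 without SW016789 replicate 1. Phgdh, which opens serine synthesis, was at 9.99, 10.5 and 9.24 CPM in DMSO and at 42.1, 50.1 and 44.6 CPM in SW016789 (2.20 ± 0.23, adjusted p = 6.09e-09). Psph, which ends it, was at 7.94, 8.77 and 7.92 CPM in DMSO and at 28.6, 26.1 and 25.2 CPM in SW016789 (1.70 ± 0.18, adjusted p = 6.59e-09). Psat1, the step between, was at 189, 163 and 155 CPM in DMSO and at 471, 519.8 and 498 CPM in SW016789 (1.55 ± 0.09, adjusted p = 5.88e-15). All 3 enzymes of the pathway had every treated library above every control library. Shmt2 and Aldh1l2, enzymes of mitochondrial one-carbon metabolism, rose by 1.77 ± 0.11 and 1.86 ± 0.12. Of 16 genes of asparagine, proline, glutamate and branched-chain metabolism 8 rose, 1 fell and 7 were not called, with a median of 0.60. Asns, asparagine synthetase (Entrez 27053, chromosome 6), was at 173, 162 and 143 CPM in DMSO and at 469, 543 and 508 CPM in SW016789 (1.67 ± 0.09, adjusted p = 1.06e-16). Gpt2 (alanine synthesis, 1.47 ± 0.14) and Aldh18a1 (proline synthesis, 1.33 ± 0.10) rose.

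By edgeR's test, calls among tRNA charging genes lay in the cytosolic list. Of 20 cytosolic aminoacyl-tRNA synthetases 16 rose, 0 fell and 4 were not called, with a median of 0.90, and of 17 mitochondrial synthetases 0 rose and 0 fell, with a median of 0.01. Over all genes tested 4.19% rose and 2.85% fell, so 0 of 17 does not set the mitochondrial enzymes apart from other genes. Nars was at 139, 123.8 and 123.4 CPM in DMSO and at 333, 339 and 302 CPM in SW016789 (1.33 ± 0.11, adjusted p = 9.57e-12). Iars was at 135, 135 and 133 CPM in DMSO and at 335, 358 and 299 CPM in SW016789 (1.30 ± 0.11, adjusted p = 1.51e-11). Eprs rose by 1.29 ± 0.09 and Aars by 1.09 ± 0.08, so that these 4 synthetases rose by similar amounts. The largest values of mitochondrial enzymes were 0.49 ± 0.17 for Cars2 (adjusted p = 0.082), 0.48 ± 0.19 for Ears2 (adjusted p = 0.142) and 0.44 ± 0.14 for Wars2 (adjusted p = 0.0502), none of them called, and 4 of the 17 had an unadjusted p below 0.05, 3 higher and 1 lower, whereas DESeq2 called 2 higher and 1 lower. With the experiment number as a block, Cars2 (0.48, adjusted p = 0.0412) and Wars2 (0.45, adjusted p = 0.038) were called, which makes 2 of 17.

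Of 25 amino acid transporters 12 rose, 3 fell and 10 were not called, with a median of 0.58. Slc7a3, a cationic amino acid transporter, was at 8.83, 3.74 and 4.58 CPM in DMSO and at 26.4, 20.4 and 17.5 CPM in SW016789 (1.91 ± 0.29, adjusted p = 7.73e-06). Slc7a1, a related transporter, rose from 149, 139 and 125.2 CPM to 400.1, 376 and 294 CPM (1.37 ± 0.11, adjusted p = 1.51e-11). The 3 that fell were 1 without DMSO replicate 1. Of 28 translation initiation factors 8 rose and 20 were not called, with a median of 0.17, and the count was 2 without SW016789 replicate 2, 4 without SW016789 replicate 3 and 2 without DMSO replicate 1. Eif2s2, the β subunit of eIF2, rose by 0.84 ± 0.10 and Eif3c by 0.81 ± 0.07. Of 16 host genes of small nucleolar RNAs 0 were called at the same threshold (2 higher at an unadjusted p below 0.05, 1 higher by DESeq2, 1 with the experiment number as a block), with a median of 0.30. With 4.19% higher and 2.85% lower over all genes tested, 0 of 16 does not set the host genes apart.

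Promoters of 3 genes of this response are shown because they hold CARE, the element bound by ATF4 with a C/EBP partner. They are chr3:50443614-50443863 (minus strand) for Slc7a11, with CARE at -66 to -58 and in reverse at -48 to -40, chr2:119350992-119351241 (plus) for Chac1, with CARE in reverse at -194 to -186, and chr6:7693210-7693459 (minus) for Asns, with CARE at -23 to -15 from a RefSeq start that is not the start in the count table.
Slc7a11: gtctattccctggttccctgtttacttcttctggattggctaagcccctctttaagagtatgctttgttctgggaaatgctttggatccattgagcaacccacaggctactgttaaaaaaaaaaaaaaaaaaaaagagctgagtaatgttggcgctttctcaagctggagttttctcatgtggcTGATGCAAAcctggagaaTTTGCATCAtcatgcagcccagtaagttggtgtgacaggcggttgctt
Chac1: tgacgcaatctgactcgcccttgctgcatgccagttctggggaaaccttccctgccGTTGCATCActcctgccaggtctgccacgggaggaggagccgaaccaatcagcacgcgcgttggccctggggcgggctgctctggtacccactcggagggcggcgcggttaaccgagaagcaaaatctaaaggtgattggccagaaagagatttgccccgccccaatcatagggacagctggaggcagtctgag
Asns: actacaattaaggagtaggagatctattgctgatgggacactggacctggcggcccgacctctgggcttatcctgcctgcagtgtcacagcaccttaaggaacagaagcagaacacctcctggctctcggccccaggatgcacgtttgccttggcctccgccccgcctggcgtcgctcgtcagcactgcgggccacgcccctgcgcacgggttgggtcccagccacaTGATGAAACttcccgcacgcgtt
CARE was found in 949 of 27025 promoters (3.51%) and in 409 of 15907 promoters of genes tested (2.57%). It was in 22 of 735 of genes that rose (2.99%), a share between these values, and in 4 of 453 of genes that fell (0.883%). It was in 4 of 13 matched promoters of the asparagine and proline list, in 3 of 12 of cytosolic synthetases and in 3 of 14 of ISR effectors. Of amino acid transporters 2 of 20 held it, and of the serine, folate and sulfur list 0 of 17. Acinar and ductal markers, a list outside this response, held it in 3 of 14.

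In the lists of β cell factors and of glucose sensing more genes fell than rose. Of 25 β cell transcription factors 1 rose, 6 fell and 18 were not called, with a median of -0.19. Pax4, a factor of β cell development outside the list, was at 26.4, 28.96 and 23.01 CPM in DMSO and at 14.2, 12.1 and 10.3 CPM in SW016789 (-1.11 ± 0.19, adjusted p = 5.24e-05). Rfx6, a factor of endocrine development, was at 62.3, 51.2 and 53.5 CPM in DMSO and at 32.7, 27.7 and 28.3 CPM in SW016789 (-0.92 ± 0.17, adjusted p = 0.000288). Both groups of libraries stood apart, and both genes kept the call without any 1 library. Mlxipl, the glucose-responsive factor ChREBP, changed by -0.81 ± 0.19 (adjusted p = 0.00497), and its adjusted p was 0.058 without DMSO replicate 1. Pdx1, the central β cell factor, was at 404, 457 and 409 CPM in DMSO and at 267, 319.8 and 353 CPM in SW016789 (-0.43 ± 0.10, adjusted p = 0.00348), and its adjusted p was 0.0841 without SW016789 replicate 1, 0.0937 without SW016789 replicate 2, 0.192 without DMSO replicate 1 and 0.0561 without DMSO replicate 2. Mafa, an activator of the insulin gene, was not called (-0.38 ± 0.18, adjusted p = 0.201) and ranged from 124.95 to 215 CPM in SW016789. Glis3, a factor of insulin transcription, was the member that rose (0.58 ± 0.09, adjusted p = 1.75e-05), and its adjusted p was 0.0511 without DMSO replicate 1. The count of 6 was 2 without SW016789 replicate 1, 3 without SW016789 replicate 2, SW016789 replicate 3 or DMSO replicate 2, and 1 without DMSO replicate 1.

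Of 29 genes of glucose sensing, excitability and receptors 1 rose, 9 fell and 19 were not called, with a median of -0.24. Slc2a2, the glucose transporter GLUT2 (Entrez 20526), was at 110.6, 112.6 and 87.1 CPM in DMSO and at 41.8, 47.5 and 49.1 CPM in SW016789 and fell by 1.16 ± 0.14 on the log2 scale (adjusted p = 1.58e-07). Ret, a receptor tyrosine kinase, was at 94.1, 81.7 and 77.5 CPM in DMSO and at 42.1, 32.2 and 37.3 CPM in SW016789 (-1.19 ± 0.12, adjusted p = 5.61e-09). Gipr, the receptor of the incretin GIP, was at 78.2, 76.9 and 74.5 CPM in DMSO and at 38.2, 47.3 and 34.7 CPM in SW016789 (-0.93 ± 0.25, adjusted p = 0.012). For all 3 genes every SW016789 library was below every DMSO library, but the call of Gipr was lost without SW016789 replicate 3 (adjusted p = 0.0756) or DMSO replicate 1 (adjusted p = 0.0791). G6pc2, the islet glucose-6-phosphatase, fell by 0.37 ± 0.10 on the log2 scale, with the call kept only without DMSO replicate 3 among single libraries left out, and Igf1r, the receptor of insulin-like growth factor, was the member that rose (0.93 ± 0.11). The count of 9 was 5 without SW016789 replicate 3 and 4 without DMSO replicate 1, and 3 rather than 1 member rose with the experiment number as a block.

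Insulin mRNA was not called. Ins2 was at 10552, 11082 and 10295 CPM in DMSO and at 7776, 13359 and 11486 CPM in SW016789 (0.03 ± 0.13, adjusted p = 0.944), and Ins1 at 2952, 3572 and 2864 CPM and at 1893, 3550 and 3011 CPM (-0.15 ± 0.18, adjusted p = 0.662). For both genes SW016789 replicate 1 was the lowest of the 6 libraries, and without it the values were 0.22 and 0.07. Of 19 genes of insulin, prohormone processing and granule cargo 4 rose, 2 fell and 13 were not called, with a median of 0.11. Vgf, a granule protein cut to neuropeptides, was at 89.3, 70.5 and 89.4 CPM in DMSO and at 154, 199.8 and 179 CPM in SW016789 (1.10 ± 0.11, adjusted p = 2.54e-09). Pam, which amidates peptides, rose by 0.70 ± 0.10 (adjusted p = 1.67e-06). Ucn3, a peptide of mature β cells, was at 95.5, 89.2 and 71.4 CPM in DMSO and at 49.2, 53.2 and 53.6 CPM in SW016789 (-0.71 ± 0.14, adjusted p = 0.000362). Nnat, which encodes neuronatin, a small ER membrane protein, was not called (-0.48 ± 0.16, adjusted p = 0.0728) but was with the experiment number as a block (-0.48, adjusted p = 0.00513). The count of 4 was 2 without SW016789 replicate 2, SW016789 replicate 3 or DMSO replicate 1 and 6 without SW016789 replicate 1, and the 2 that fell were 1 without any library other than DMSO replicate 3. Of the 10 β cell markers 0 rose by edgeR's test (2 at an unadjusted p below 0.05 and 1 by DESeq2) and 4 fell. As 4.19% of all genes tested rose, 0 of 10 that rose does not set the markers apart. Without SW016789 replicate 1, 2 rose, and the 4 that fell were 1 without SW016789 replicate 1, SW016789 replicate 2, DMSO replicate 1 or DMSO replicate 2 and 2 without SW016789 replicate 3.

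Of 26 exocytosis genes 3 rose, 4 fell and 19 were not called, with a median of -0.07. Cplx2, complexin 2, which clamps SNARE fusion, was at 325, 363 and 303 CPM in DMSO and at 141, 208 and 220.5 CPM in SW016789 (-0.79 ± 0.12, adjusted p = 1.35e-05). Syt9, a Ca2+ sensor of exocytosis, changed by -0.76 ± 0.12, and Sv2b, a vesicle glycoprotein outside the list, by -1.06 ± 0.19. Syt4, a synaptotagmin of dense-core vesicles, was at 451, 416 and 434 CPM in DMSO and at 735, 955 and 782 CPM in SW016789 (0.93 ± 0.09, adjusted p = 3.61e-09). The 3 that rose were 1 without SW016789 replicate 2, SW016789 replicate 3, DMSO replicate 1 or DMSO replicate 2. Of 25 Ca2+ handling genes 6 rose, 3 fell and 16 were not called, with a median of -0.02. Atp2a2, the SERCA2 pump, rose from 3853, 3726 and 3468 CPM to 4895, 5294 and 4891 CPM (0.45 ± 0.07, adjusted p = 3.87e-05), with adjusted p values of 0.155, 0.0664 and 0.0833 without SW016789 replicate 2, SW016789 replicate 3 and DMSO replicate 1. Saraf, which slows store-operated Ca2+ entry, rose by 0.78 ± 0.09, and Atp2b2, a plasma membrane Ca2+ pump, changed by -0.70 ± 0.09. Vdac1, a channel of the outer mitochondrial membrane, was at 451, 452 and 436 CPM in DMSO and at 382, 482 and 477 CPM in SW016789 (0.00 ± 0.10, adjusted p = 1). The Ca2+ count of 6 was 1 without SW016789 replicate 2, 2 without SW016789 replicate 3, 1 without DMSO replicate 1, 3 without DMSO replicate 2 and 2 without DMSO replicate 3, and the count of 3 was 1 without SW016789 replicate 1 and 1 without DMSO replicate 1.

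Outside these groups the largest decreases were of modest level. Kctd12b, a BTB domain protein, was at 5.38, 4.11 and 4.06 CPM in DMSO and at 0.838, 1.57 and 1.51 CPM in SW016789 (-1.78 ± 0.42, adjusted p = 0.00391, and 0.0637 without DMSO replicate 1). Celsr1, a cadherin of planar polarity, was at 40.4, 38.3 and 33.8 CPM in DMSO and at 20.2, 10.1 and 10.5 CPM in SW016789 (-1.51 ± 0.24, adjusted p = 1.99e-05), and the difference was -1.87 without SW016789 replicate 1. Per3, a clock repressor, was at 59.9, 51.7 and 59.4 CPM in DMSO and at 25.7, 19.8 and 23.6 CPM in SW016789 (-1.31 ± 0.18, adjusted p = 1.39e-06). The DMSO libraries of all 3 genes lay above every SW016789 library, which was required of the largest decreases named. Lcp2, a signaling adaptor (-1.13 ± 0.13), Slc40a1, the iron exporter ferroportin (-1.02 ± 0.13), Ngfr, the p75 neurotrophin receptor (-1.02 ± 0.21), and Pik3cg, a phosphoinositide kinase subunit (-1.10 ± 0.26), also fell and kept their calls without any 1 library. Of 22 Wnt and planar polarity genes Wnt5a rose and Celsr1 fell, with a median of -0.11, and Wnt4 was not called (-0.55 ± 0.24, adjusted p = 0.177) but fell with the experiment number as a block (-0.58, adjusted p = 0.00425), which makes 2 that fell, as was the count without DMSO replicate 2. The Wnt counts are near the shares over all genes tested, of which 4.19% rose and 2.85% fell.

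Among cell cycle and lipid synthesis genes more fell than rose. Of 34 genes of cell cycle and DNA replication 3 rose, 12 fell and 19 were not called, with a median of -0.27. Rrm2, a subunit of ribonucleotide reductase, was at 157, 167 and 147 CPM in DMSO and at 104.4, 100.2 and 113.4 CPM in SW016789 (-0.57 ± 0.10, adjusted p = 0.000101), and Cdk2 changed by -0.48 ± 0.11 (adjusted p = 0.0921 without DMSO replicate 1). Cdkn1a, the inhibitor p21, rose by 0.72 ± 0.14 (adjusted p = 0.0708 and 0.0607 without SW016789 replicates 2 and 3) and Ccnd2, cyclin D2, by 0.69 ± 0.09. The count of 12 was 6 without SW016789 replicate 1, 3 without SW016789 replicate 2, 6 without SW016789 replicate 3 and 1 without DMSO replicate 1, and the 3 that rose were 1 without SW016789 replicate 2 or 3. Of 28 genes of sterol and fatty acid synthesis 2 rose, 7 fell and 19 were not called, with a median of -0.16. Msmo1, of sterol demethylation, rose by 0.49 ± 0.09, with adjusted p values of 0.0879 without SW016789 replicate 2 and 0.0864 without DMSO replicate 1. The count of 7 was 3 without SW016789 replicate 1, 2 without SW016789 replicate 2, 2 without DMSO replicate 1 and 4 without DMSO replicate 3, and the 2 that rose were 0 without SW016789 replicate 2 or DMSO replicate 1 and 1 without SW016789 replicate 3.

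The clock moved in both directions, with 4 genes that rose and 4 that fell of 19 and a median of 0.01. Nfil3, a repressor of D-box genes, was at 12.2, 15.8 and 14.4 CPM in DMSO and at 32.3, 40.9 and 32.4 CPM in SW016789 (1.32 ± 0.15, adjusted p = 6.92e-08). Cry1, a repressor of the core loop, rose by 1.09 ± 0.12 and Ciart, a further repressor, by 1.40 ± 0.29. Dbp, an activator of D-box genes, was at 37.6, 43.3 and 41.0 CPM in DMSO and at 21.1, 20.96 and 28.3 CPM in SW016789 (-0.79 ± 0.16, adjusted p = 0.00105). Nr1d1, the nuclear receptor REV-ERBα, changed by -0.55 ± 0.17 (adjusted p = 0.0329), and it kept the call only without SW016789 replicate 3 among single libraries left out. The 4 that fell were 2 without SW016789 replicate 2 or DMSO replicate 1.

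Of 24 genes of cell death and survival 0 rose by edgeR's test (3 at an unadjusted p below 0.05 and 2 by DESeq2) and 1 fell, with a median of 0.06. Over all genes tested 4.19% rose and 2.85% fell, so these counts do not set the list apart from other genes. Bcl2l11, which encodes the death protein BIM, was at 98.8, 97.4 and 100.4 CPM in DMSO and at 59.0, 66.8 and 69.1 CPM in SW016789 (-0.60 ± 0.07, adjusted p = 1.46e-07). Bbc3, which encodes PUMA, was not called (0.72 ± 0.28, adjusted p = 0.135). Txnip, an arrestin that rises with glucose, was not called (-0.90 ± 0.37, adjusted p = 0.157) but fell with the experiment number as a block (-0.93, adjusted p = 0.0063), and 3 genes of the list fell there and 2 without DMSO replicate 3. Of 22 autophagy genes 5 rose and 0 fell, with a median of 0.03, and the count was 2 without SW016789 replicate 2, SW016789 replicate 3 or DMSO replicate 1, and 1 fell without DMSO replicate 2 or with the experiment number as a block. Sqstm1, the receptor p62, was at 413, 415 and 389 CPM in DMSO and at 769, 879 and 798 CPM in SW016789 (1.01 ± 0.08, adjusted p = 3.18e-12). Of 23 genes of cytosolic heat shock and NRF2 5 rose and 0 fell, with a median of 0.16, and the count was 1 without SW016789 replicate 2 and 2 without DMSO replicate 1. Hmox1, heme oxygenase, was at 25.9, 27.2 and 24.4 CPM in DMSO and at 56.1, 67.1 and 52.2 CPM in SW016789 (1.18 ± 0.13, adjusted p = 1.07e-08). Hspa1a and Hspa1b, near-identical Hsp70 genes whose reads cannot be separated with certainty, rose by 1.26 ± 0.30 and 0.96 ± 0.22. The adjusted p of Hspa1a was 0.0816, 0.109 and 0.0507 without SW016789 replicate 2, DMSO replicate 1 and DMSO replicate 2. That of Hspa1b was 0.0951 without SW016789 replicate 2 and 0.0579 without DMSO replicate 1.

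SW016789 and thapsigargin differed at 6 h in 2513 genes (11.6%), with 1641 higher in SW016789 (7.54%) and 872 lower (4.01%). This direct test uses no DMSO library, but thapsigargin replicates 2 and 3 and SW016789 replicate 1 were above 20% intergenic, and without libraries above 20% 1976 genes were called. With the 6 libraries of these groups alone in the fit, 749 were called. The count was 943 without SW016789 replicate 2 and 915 without SW016789 replicate 3. Genes of ER protein handling were higher in SW016789. This held for 10 of 17 chaperone genes, 16 of 23 isomerases, 11 of 16 lectins, 15 of 37 glycosylation genes, 14 of 21 cargo receptors and 15 of 28 COP-I genes, with 0 lower in each of these lists. Hspa5 was at 2340, 2299 and 2362 CPM in thapsigargin, 1.06 ± 0.10 below its level in SW016789 on the log2 scale (adjusted p = 4.54e-10). Derl3 was at 19.01, 16.5 and 13.3 CPM in thapsigargin (SW016789 higher by 2.35 ± 0.21, adjusted p = 1.70e-10), and Creld2 at 62.4, 64.1 and 71.4 CPM (1.97 ± 0.10, adjusted p = 2.47e-16). Kdelr3 was at 5.26, 7.36 and 7.84 CPM (1.54 ± 0.25, adjusted p = 2.62e-05). These 4 genes were far above the thapsigargin level in every SW016789 library. Herpud1, by contrast, did not pass the test (0.12 ± 0.11, adjusted p = 0.574), nor did Xbp1 (0.04 ± 0.10, adjusted p = 0.866) or Ddit3 (0.17 ± 0.20, adjusted p = 0.697). 

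Of 19 genes of insulin, prohormone processing and granule cargo 18 had higher mRNA in SW016789 than in thapsigargin, with 0 lower. Against DMSO the median of this list was 0.11 with SW016789 and -0.55 with thapsigargin. Ins2 was at 4606, 4910 and 5208 CPM in thapsigargin (SW016789 higher by 1.15 ± 0.13, adjusted p = 5.43e-08) and Ins1 at 1148, 1344 and 1389 CPM (1.12 ± 0.18, adjusted p = 2.17e-05). Vgf was higher by 1.35 ± 0.11, Ucn3 by 1.10 ± 0.14 and Pam by 0.99 ± 0.10. Of exocytosis genes 11 were higher and 2 lower, and of β cell transcription factors 9 were higher and 2 lower. Slc2a2 did not pass (0.41 ± 0.14, adjusted p = 0.0561), with 31.5, 41.3 and 32.1 CPM in thapsigargin, under the DMSO level as in SW016789. Serpina3n, a secreted serpin, was at 2.34, 3.99 and 1.65 CPM in thapsigargin and higher by 2.04 ± 0.37 in SW016789.

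Genes of the ISR, immediate-early genes, the clock and lipid synthesis lay lower in SW016789 than in thapsigargin. This held for 6 of 19 ISR effectors (0 higher), 7 of 20 cytosolic synthetases (1 higher), 14 of 37 immediate-early genes (3 higher), 10 of 19 clock genes (1 higher), 15 of 28 lipid genes (2 higher) and 12 of 34 cell cycle genes (3 higher). Atf3 was at 70.7, 58.9 and 61.2 CPM in thapsigargin, and SW016789 was lower by 2.34 on the log2 scale (-2.34 ± 0.19, adjusted p = 2.07e-11). Chac1 was at 214, 178 and 214 CPM (-1.41 ± 0.18, adjusted p = 6.19e-07), Trib3 at 191, 152 and 179.8 CPM (-1.09 ± 0.16, adjusted p = 6.01e-06) and Sesn2 at 233, 198 and 194 CPM (-1.32 ± 0.12, adjusted p = 2.44e-10). Slc7a11 was at 127, 87.3 and 78.7 CPM (-0.91 ± 0.25, adjusted p = 0.0127). All 5 genes had risen against DMSO, and their thapsigargin libraries were all above every SW016789 library. Egr1, an immediate-early factor that fell with SW016789, was at 329.6, 236 and 212 CPM in thapsigargin (-1.49 ± 0.25), and Nr1d1 at 76.1, 51.1 and 83.0 CPM (-1.81 ± 0.17). Phgdh (-0.21 ± 0.22, adjusted p = 0.649), Psph (-0.36 ± 0.17, adjusted p = 0.207) and Asns (-0.10 ± 0.08, adjusted p = 0.551) did not pass the test, and a miss does not show that the treatments act alike.

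**Figure D4:**
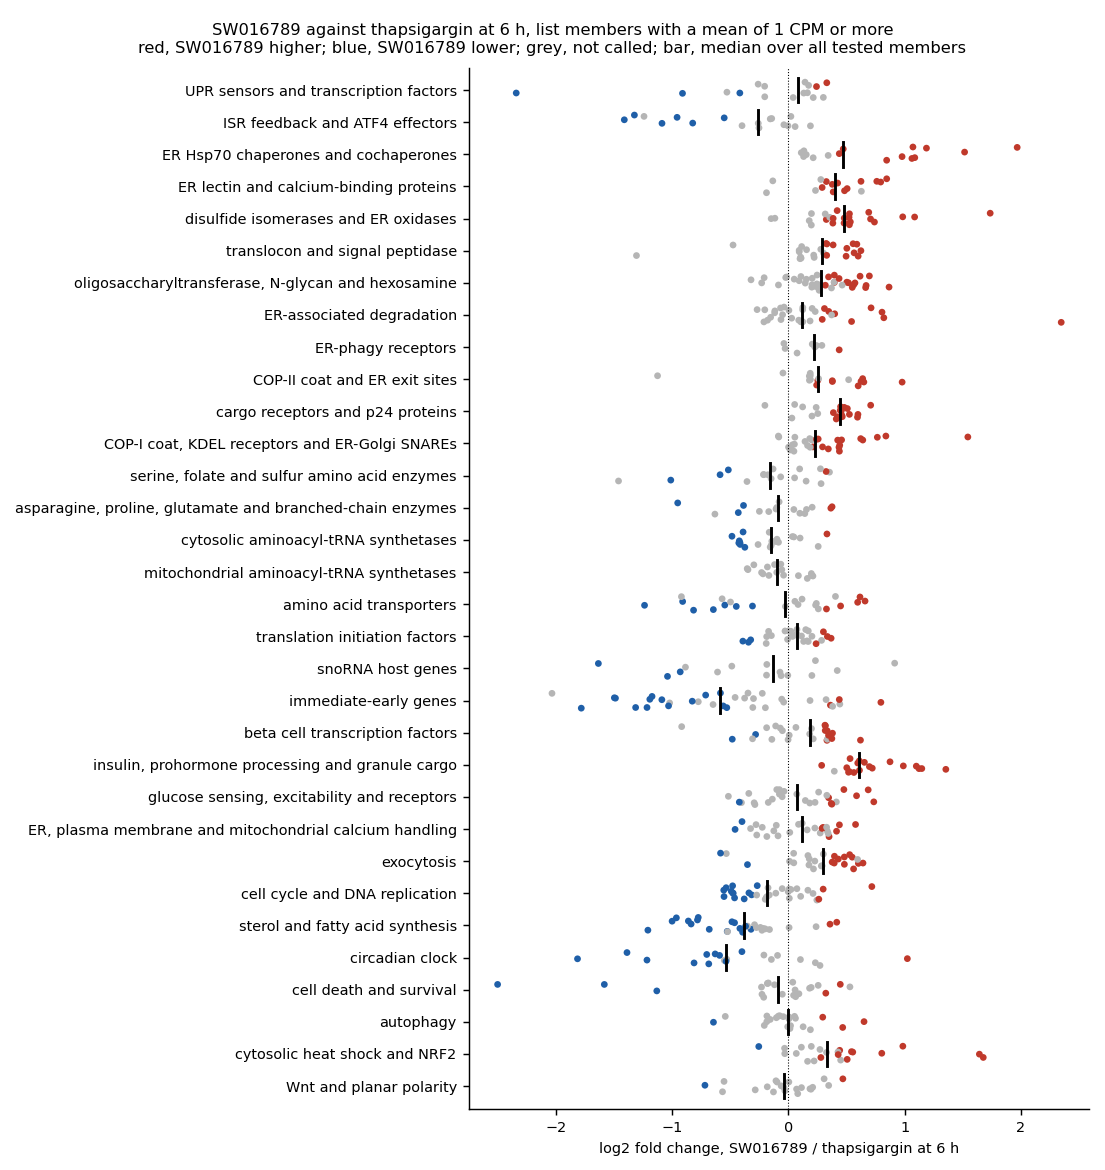
Log2 fold change of SW016789 against thapsigargin at 6 h (horizontal axis) for members of the 32 lists that average 1 CPM or more, 1 point per gene, with a black bar at the median over all tested members. Chaperones, isomerases, cargo receptors and insulin granule genes lie to the right, with medians of 0.47, 0.48, 0.45 and 0.61, and clock and immediate-early genes to the left, with medians of -0.54 and -0.58, against -0.15 over all genes tested.

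The effect at 6 h was set against that at 2 h and 24 h, each time with DMSO libraries of the same time. At 1 h 73 genes rose and 8 fell, at 2 h 414 and 148, and at 24 h 424 and 231. Of the 911 genes that rose at 6 h 87.5% had the same sign at 2 h and 84.4% at 24 h, against 56.8% and 57.1% of all genes tested, and 229 and 251 of them were called there. At 1 h the share was 49.1%, against 61.1% of all genes. The median log2 fold change of the 911 was -0.0026 there, with 33 called higher and 2 lower. SW016789 1 h replicate 1 held 9150443 counts and 36.6% intergenic reads, and SW016789 2 h replicate 1 held 20.6% intergenic reads. The shares of all genes include genes under 1 CPM, and how far these libraries moved them was not tested. Of the 620 that fell 75.8% had the same sign at 2 h and 79.5% at 24 h, against 42.9% and 39.4% of all genes, with 44 and 85 called.

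The 6 h effect differed from the 2 h effect in 287 genes (1.32%), with 174 above it (0.8%) and the others below (0.519%), and in 484 genes with the experiment number as a block. The count was 45 without DMSO 6 h replicate 1, 64 and 89 without SW016789 6 h replicates 2 and 3, 168 and 173 without DMSO 6 h replicates 2 and 3, 166 and 67 without SW016789 2 h replicates 2 and 3, 697 without DMSO 2 h replicate 1 and 63 without DMSO 2 h replicate 3. Of 20 genes of serine, folate and sulfur amino acids 5 had a 6 h effect above that at 2 h, as did 3 of 25 amino acid transporters, with 0 below. Phgdh, Psph and Slc7a3 were among the genes with the largest differences. Phgdh differed from DMSO by 0.12 ± 0.23 at 2 h and 2.20 ± 0.23 at 6 h (difference 2.08 ± 0.32, adjusted p = 9.19e-05), Psph by 0.16 ± 0.18 and 1.70 ± 0.18 (1.53 ± 0.25, adjusted p = 0.000224), and Slc7a3 by 0.18 ± 0.29 and 1.91 ± 0.29 (1.72 ± 0.40, adjusted p = 0.0176). The call for Slc7a3 was lost without SW016789 6 h replicate 1 or 2, DMSO 6 h replicate 2 or 3, SW016789 2 h replicate 3 or DMSO 2 h replicate 3, and with only the compared libraries. Fkbp11, an ER prolyl isomerase, was at -0.38 ± 0.22 at 2 h, 1.73 ± 0.22 at 6 h and 2.18 ± 0.22 at 24 h. Hspa5 was at 0.99 ± 0.10 at 2 h, and its 6 h effect was larger by 0.80 ± 0.14 (adjusted p = 0.000415). Creld2 was at 1.04 ± 0.10 at 2 h and larger by 1.03 ± 0.14 at 6 h (adjusted p = 1.10e-05). The 6 h effect was above the 2 h effect in 9 of 17 chaperone genes and 9 of 20 cytosolic synthetases, with 0 below.

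Immediate-early genes, which respond to Ca2+ and growth signals without new protein, had their largest changes before 6 h. Of 37 such genes 9 rose and 1 fell at 6 h, with medians of 1.73 at 1 h, 1.30 at 2 h, 0.28 at 6 h and -0.19 at 24 h, and 9 of them had a lower effect at 6 h than at 2 h. Fosb was at 3.68 ± 0.23 at 1 h, 3.20 ± 0.23 at 2 h and 1.18 ± 0.22 at 6 h (difference of 6 h from 2 h -2.03 ± 0.31, adjusted p = 7.05e-05). Egr1 was higher than in DMSO by 2.31 ± 0.25 at 1 h and lower at 6 h, where its level was 220.4, 191 and 114.6 CPM in DMSO and 95.2, 92.9 and 89.7 CPM in SW016789 (-0.92 ± 0.24, adjusted p = 0.0129). Its DMSO libraries varied widely, and the call was lost without SW016789 replicate 2 (adjusted p = 0.0517), DMSO replicate 1 (0.236) or DMSO replicate 2 (0.0569). Dusp4, a phosphatase that ends ERK signaling, was at 55.7, 44.8 and 52.3 CPM in DMSO and at 129, 154 and 134 CPM in SW016789 (1.45 ± 0.13), after 1.79 ± 0.13 at 2 h.

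The 6 h effect differed from the 24 h effect in 316 genes (1.45%), with 204 above it (0.938%) and the others below (0.515%), and in 516 genes with the experiment number as a block. The count was 80, 86, 158, 178, 196 and 203 without DMSO 6 h replicate 1, SW016789 6 h replicate 2, SW016789 6 h replicate 3, DMSO 24 h replicate 1, DMSO 6 h replicate 2 and DMSO 24 h replicate 3. Of 16 UPR sensors and factors 5 had a 6 h effect above that at 24 h, as did 4 of 19 ISR effectors, with 0 below. Ddit3 was at 2.33 ± 0.21 at 6 h and 0.39 ± 0.21 at 24 h (difference 1.94 ± 0.30, adjusted p = 8.45e-05), Slc7a11 at 3.14 ± 0.28 and 0.78 ± 0.27 (2.36 ± 0.38, adjusted p = 0.000177), and Wnt5a at 2.77 ± 0.27 and 0.76 ± 0.26 (2.02 ± 0.37, adjusted p = 0.000961). The 6 h effect was above the 24 h effect in 12 of 20 cytosolic synthetases and 8 of 17 chaperone genes, with 0 below. Of 24 translocon genes 0 passed this test, with medians of 0.52 at 6 h and 0.36 at 24 h, and 14 were called higher at 24 h. At 24 h the calls were also higher for 13 of 17 chaperone genes and 10 of 16 lectins. The same held for 16 of 37 glycosylation genes and 19 of 28 COP-I genes. The median of the lectin list was 0.36 at 6 h and 0.42 at 24 h. Of 19 clock genes the 6 h effect was above the 24 h effect in 4 and below it in 4. Estimates of opposite sign were seen for Per3 and Dbp. Per3 was at -1.31 ± 0.18 at 6 h and 0.21 ± 0.17 at 24 h (-1.53 ± 0.25, adjusted p = 0.000195), and Dbp at -0.79 ± 0.16 and 0.65 ± 0.16 (-1.44 ± 0.23, adjusted p = 0.000161). Slc2a2 was lower than in DMSO at both times (-1.16 ± 0.14 and -0.99 ± 0.14, difference -0.17 ± 0.20, adjusted p = 0.947). Gc, which encodes vitamin D binding protein, was not called at 6 h (0.31 ± 0.14, adjusted p = 0.18) and was at 1.51 ± 0.14 at 24 h. Ppargc1a, a coactivator of mitochondrial genes (0.77 ± 0.12 at 6 h), and Angptl6, a secreted angiopoietin-like factor (1.495 ± 0.30), rose at 6 h.

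**Figure D5:**
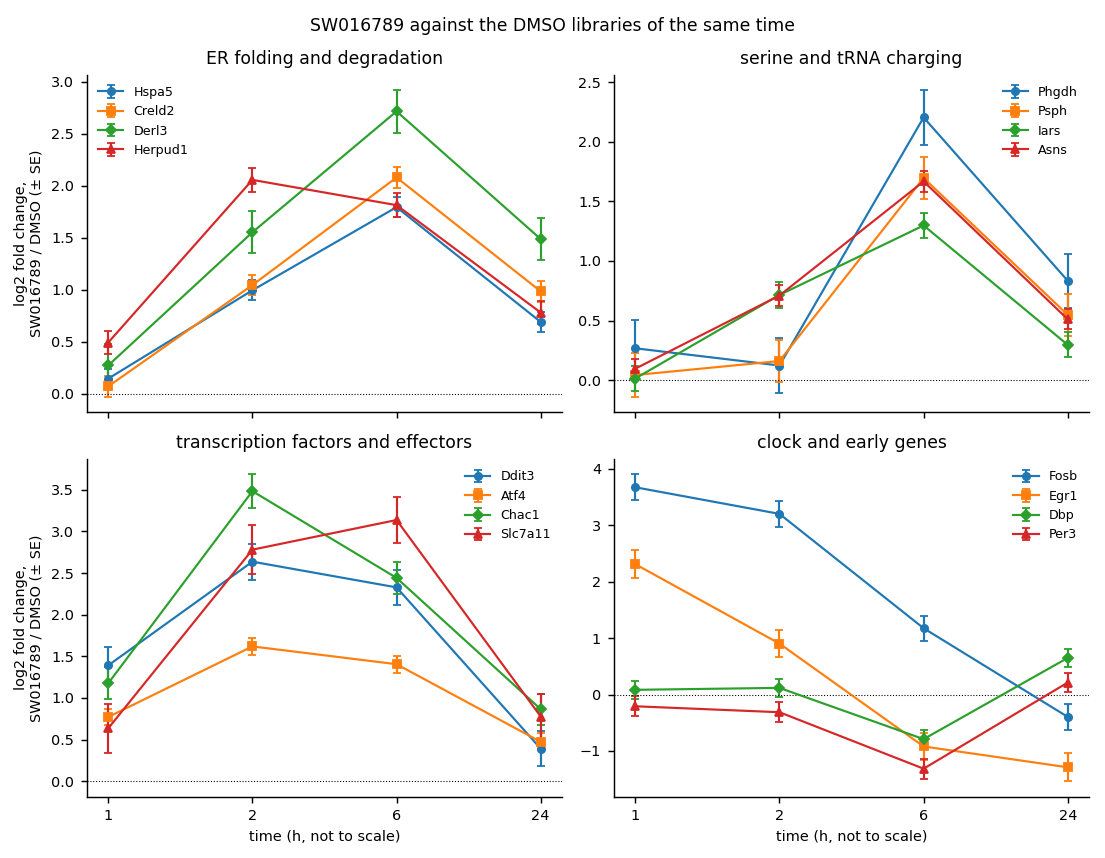
Log2 fold change of SW016789 against DMSO of the same time (vertical axis, ± SE) at 1, 2, 6 and 24 h (horizontal axis, not to scale) for 16 genes in 4 panels. Hspa5, Creld2, Derl3, Phgdh and Asns were highest at 6 h, Chac1 at 2 h and Fosb and Egr1 at 1 h, and Per3 and Dbp were lowest at 6 h.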

How the data were processed

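RNA of MIN6 cells in 13 groups of 3 libraries was sequenced. Per the labels, libraries were made with the KAPA RNA HyperPrep kit after removal of ribosomal RNA with QIAseq FastSelect, whereas the methods name an mRNA kit. Per the submitters' processing notes, the authors aligned reads with STAR 2.5.2b to mm10 and counted them with featureCounts (Subread 1.5.1), whereas the methods name later versions of both tools. The authors deposited raw counts per gene and mapping percents per library. The counts were used as deposited, and the mapping percents deposited by the authors were read only to describe libraries. Another 78 columns of per-sample values were not used. The table held 24421 genes, of which 605 had no read.

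Genes were filtered with filterByExpr by group, leaving 21752, and fitted with edgeR 4.0.16 (R 4.3.3, limma 3.58.1) with TMM scaling over 13 groups and 39 libraries, without a block. Differences at 6 h were tested by the quasi-likelihood F test with Benjamini-Hochberg adjustment over all genes tested, and a gene was called at an adjusted p below 0.05. SE is the log2 fold change divided by the square root of F. CPM are TMM scaled counts per 1e+06. A fold change rests on edgeR's prior count where counts are low. The script was tested on simulated data, with changes only in genes averaging 1 CPM or more. The simulated spread between libraries was set below the common value fitted here, so the test does not show how accurate the calls are in these data.

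Totals were 9150443 to 47616080 counts per library with a median of 32153770, and p-values measure the spread between 3 experiments on 1 cell line. The replicate number is the experiment number of the labels and marks samples collected together. Deviations of same-numbered SW016789 and DMSO 6 h libraries correlated at -0.05 to 0.04 over 3 pairs, and those of different numbers at -0.09 to 0.12. Over all groups the median was 0.10 for same and -0.06 for different numbers. Alternatives were DESeq2 1.42.0, its size factors, no filter, a mean of 1 CPM, the experiment number as a block with and without the intergenic percent, libraries below 20% intergenic, only the compared groups and 1 library left out.

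Named genes were the 15 largest changes per direction (called, averaging 1 CPM or more, groups not overlapping), 4 members per list, 6 differences per direction against thapsigargin, 2 h and 24 h, and 29 genes always reported. Some list members named with them were chosen after their values were seen. The 36 lists and the members were chosen with earlier results of these data known. Promoters are RefSeq, GRCm38.p6, matched by symbol for 735 of 911 genes that rose and 453 of 620 that fell. Protein sequences were not used here.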

Additional observations from a re-analysis of the deposited data

Results flagged for a closer look

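The results given here were picked out because the SW016789 effect at 6 h differed from that at another time by a test of the difference itself (edgeR's quasi-likelihood test, adjusted p below 0.05). With 3 libraries per group, single libraries were not tested as outliers. Against 2 h, 287 genes differed. The 6 h effect was higher on the log2 scale by 2.08 for Phgdh, 1.53 for Psph, 1.72 for Slc7a3, 2.11 for Fkbp11, 1.74 for Fam129a and 1.66 for Ddr2. It was lower for Fosb (-2.03), Atf3 (-1.57), Egr1 (-1.82), Ccsap (-1.30), D430019H16Rik (-1.19) and Hist1h3g (-1.10). Of these 12 genes 3 lost the call in at least 1 alternative, namely Slc7a3, Ddr2 and D430019H16Rik.

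Against 24 h, 316 genes differed. The 6 h effect was higher by 2.36 for Slc7a11, 2.02 for Wnt5a, 1.94 for Ddit3, 1.66 for Dusp4, 1.80 for Nfil3 and 1.66 for Rab30. It was lower for Per3 (-1.53), Cyp2s1 (-1.41), Ngfr (-1.16), Nr1d1 (-1.41), Dbp (-1.44) and Ffar2 (-1.23). Of these 12 genes 3 lost the call in at least 1 alternative, namely Cyp2s1, Ngfr and Rab30. Both comparisons use the same SW016789 and DMSO 6 h libraries.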

How the results depend on the processing

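Of 184 named genes 148 were called against DMSO, and 38 of these lost the call in at least 1 alternative. Most were lost without DMSO replicate 1 (34) or SW016789 replicate 2 (29). Fewer were lost without DMSO replicate 2 (19), SW016789 replicate 1 (18), DMSO replicate 3 (11) or SW016789 replicate 3 (10). The count of 1531 was 2406 with DESeq2 and 2419 with the block and intergenic percent, and 572 to 1155 with 1 library left out. With the experiment number as a block it was 1950, and beside Cars2, Wars2, Nnat, Txnip and Wnt4, which gained the call, the block changed no call of a named gene. The count of 2513 against thapsigargin was 749 with only the compared libraries and 915 to 2581 with 1 left out. The count of 287 against 2 h was 766 with DESeq2, 484 with the block, 820 with the block and intergenic percent, 62 with only the compared libraries and 45 to 697 with 1 left out. The count of 316 against 24 h was 808, 516 and 914 in the first 3 of these and 80 to 277 with 1 left out. Values that changed sign were of genes not called. They were Lars2 (-0.0776), Wnt11 (-0.29), Vwf (-1.29), Col1a2 (-0.51), Col1a1 (-0.73) and Ins1 (0.075) below 20% intergenic, Rims1 (-0.027), Wnt11 (-0.17), Muc1 (-0.13), Vwf (-0.37), Col1a2 (-0.44) and Col1a1 (-0.53) with the block and intergenic percent, and Vdac1 (-0.011 with a mean of 1 CPM, -0.0056 with the block and -0.018 with only the compared libraries). With 1 library left out the ranges were -0.084 to 0.64 for Lars2, -0.29 to 2.93 for Wnt11, -0.084 to 0.14 for Ttr, -1.29 to 3.80 for Vwf, -0.52 to 0.72 for Col1a2, -0.73 to 0.55 for Col1a1, -0.10 to 0.10 for Vdac1, -0.39 to 0.069 for Ins1 and -0.18 to 0.22 for Ins2. The causes were not tested. Depth limits genes under 1 CPM most.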
